A study of Mus musculus with 6 samples.

Results

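The set described here holds 10 genes of the YAP/TAZ pathway, among 23194 genes in the deposited table: the co-activator genes Yap1 and Wwtr1 (which encodes TAZ), their DNA-binding partner Tead1, the pathway regulators Lats2, Amotl2, Ajuba and Nuak2, and the target genes Ctgf, Cyr61 and Ankrd1. Ctgf and Cyr61 are the older symbols of the genes now called Ccn2 and Ccn1. Members were taken by symbol, and all 10 were found in the table and passed the filter on low counts. They were chosen by their place in the pathway with the counts of injured against naive lungs already known, so member values of that contrast are a description and carry no test. The RNA came from the left lung, taken whole, of adult wild type mice of the inbred strain C57BL/6. The naive group holds 3 lungs from control mice with no treatment named, and the injured group holds 3 lungs in which the artery to the left lung was tied for 4 h and then opened for 24 h of reperfusion, so a warm ischemia-reperfusion injury. No sham operation is named for the naive mice, so surgery and ischemia cannot be told apart, and no label ties the replicate numbers of the groups to each other. Total counts per library ran from 18913487 to 34986276, and summed alveolar type 2 cell markers, a check of the labelled tissue, ran from 27682 to 30668 CPM (counts per 1000000, scaled to a common library size after TMM normalization) over the 6 lungs.

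YAP and TAZ are co-activators that have no DNA-binding domain of their own and reach DNA through TEAD factors. The Hippo cascade restrains them: the kinases MST1 and MST2 (Stk4 and Stk3) act on LATS kinases, which phosphorylate YAP and TAZ and hold them in the cytoplasm. Stretch, a stiff matrix and low cell density favour their entry into the nucleus, and several of their targets, including Lats2 and Amotl2, feed back on the pathway. In the lung the pathway is known for its roles in alveolar type 1 cells and in repair of the alveolar epithelium. Transcript levels of Yap1 and Wwtr1 do not report where the proteins are.

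TEAD factors bind a short core, CATTCC, or GGAATG read on the other strand. Promoter windows of 250 bases before and 50 bases from the start site on, from RefSeq on build GRCm38.p6, were matched for 7 members, and Ctgf, Tead1 and Nuak2 were not matched. The core was present in at least 1 window of all 7 members, or 8 of their 9 windows (the 2 windows of Wwtr1 overlap and share a match), against 14.7% of 32851 windows of the same length in the whole table and 16.6% of the 27025 genes. These members are known in part as TEAD targets, so this share was not read as a result. Each match is shown with 12 bases on either side, on the strand of the gene, to let the cores be compared. Capitals mark the core, and positions are of its leftmost base, counted back from the start site.
Cyr61, -103, chr3:145650071-145650100, minus strand: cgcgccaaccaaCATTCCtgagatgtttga
Ankrd1, -210, chr19:36120037-36120066, minus strand: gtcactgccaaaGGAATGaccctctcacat
Ankrd1, -123, chr19:36119950-36119979, minus strand: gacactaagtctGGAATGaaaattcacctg
Amotl2, -65, chr9:102717727-102717756, plus strand: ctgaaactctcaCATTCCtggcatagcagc
Ajuba, -186, chr14:54577830-54577859, minus strand: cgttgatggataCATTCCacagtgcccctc
Ajuba, -164, chr14:54577808-54577837, minus strand: tgcccctccgcgCATTCCaactgtaaacaa
Yap1, -141, chr9:8004720-8004749, minus strand: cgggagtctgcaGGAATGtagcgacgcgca
Wwtr1, -136, chr3:57576029-57576058, minus strand: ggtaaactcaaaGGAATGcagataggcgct
Lats2, 5 bases into the transcript, chr14:57746102-57746131, minus strand: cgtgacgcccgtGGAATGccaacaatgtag
Matches were found in promoters of genes whose groups did not overlap (Cyr61 and Lats2, both lower in injured lungs). They were also found in promoters of genes whose groups overlapped (Ankrd1, Amotl2, Ajuba, Yap1 and Wwtr1). Ctgf and Tead1, whose groups did not overlap either, had no window, so matches could not be compared over all members. Annotated exons of the same gene cover all 250 bases upstream of Ankrd1 and 136 of those upstream of Amotl2. Both matches of Ankrd1 thus lie in annotated exons. The AP-1 motif TGANTCA, read on both strands, and the CArG box bound by SRF were in none of the 9 windows, against 7.81% and 1.63% of all windows. The 250 bases upstream of Cyr61, the member with the largest fold difference that has a window, lie at chr3:145649986-145650235 on the minus strand and hold a single core.
Cyr61 upstream: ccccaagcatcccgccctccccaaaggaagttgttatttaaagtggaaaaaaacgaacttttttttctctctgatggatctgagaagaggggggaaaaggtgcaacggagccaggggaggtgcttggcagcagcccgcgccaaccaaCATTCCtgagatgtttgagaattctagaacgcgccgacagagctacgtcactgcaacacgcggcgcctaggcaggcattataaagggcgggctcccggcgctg

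The comparison asked which members differed after warm ischemia and reperfusion. The 2 CCN genes were far lower in injured lungs, while the log2 fold changes of the other 8 members ran from -0.37 (Lats2) to 0.061 (Ajuba). By edgeR's quasi-likelihood test over 15486 genes, 1 member was called lower at an adjusted p under 0.05 (Ctgf), where 0.956% of all tested genes were called lower and 3.11% in either direction. None of the members was called higher by edgeR, DESeq2 or limma-voom, none was higher at an unadjusted p under 0.05, and 2.16% of all genes were called higher. Lower at an unadjusted p under 0.05 were 4 of 10 members, where 16.7% of all tested genes passed that threshold in either direction. DESeq2 called 2 members lower and limma-voom 1. The CPM values of the groups did not overlap for 4 of 10 members, Ctgf, Cyr61, Lats2 and Tead1, all lower in injured lungs, where 10.6% of all tested genes were separated in that direction and 22.9% in either. The median log2 fold change was -0.20 over the 10 members and -0.00096 over all genes tested. Whole lungs were sequenced, so fewer cells of a type and less RNA per cell cannot be told apart.

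**Figure D1:**
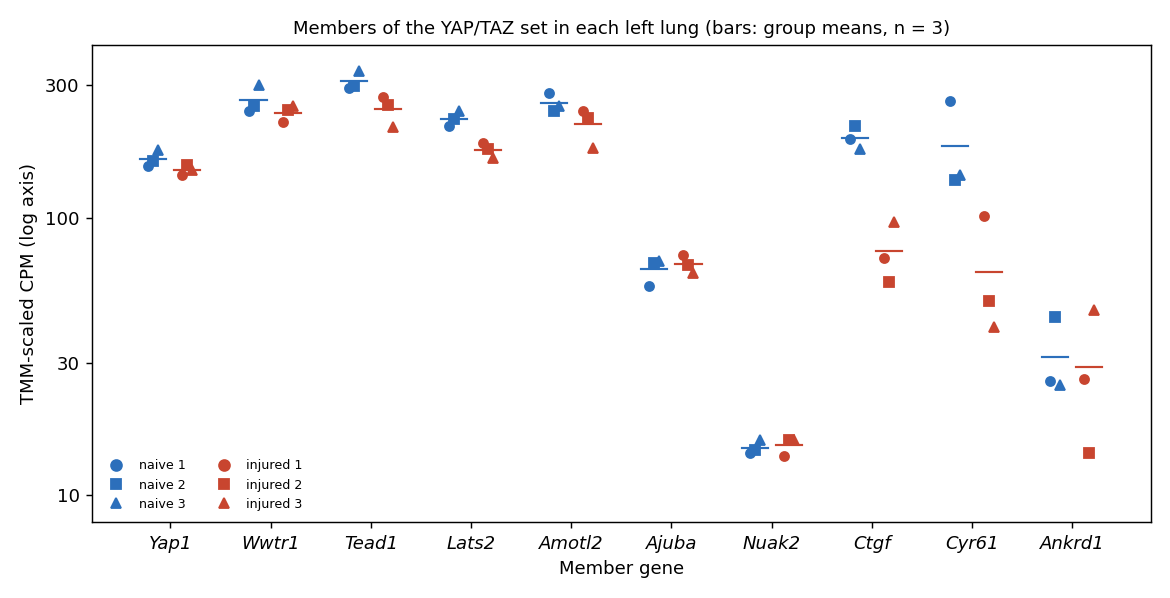
CPM of the 10 members in each of the 6 left lungs on a log axis; marker shapes give the replicate, colours the group, and bars the group means (n = 3). Ctgf and Cyr61 lay lower in all 3 injured lungs, whereas Ankrd1 ran from 14.2 to 46.5 CPM with both groups mixed.

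Ctgf (ENSMUSG00000019997, mm10 chromosome 10, 24595442 to 24598683, plus strand) encodes a secreted matricellular protein and is among the most used readouts of YAP/TAZ activity. Its level was 192, 215 and 177 CPM in naive replicates 1, 2 and 3 and 71.6, 58.6 and 96.6 CPM in injured replicates 1, 2 and 3. The highest injured lung, replicate 3, stayed well under the lowest naive lung, replicate 3. The means were 194 ± 19.1 and 75.6 ± 19.3 CPM (SD, n = 3), so the naive level was 2.57 times the injured level (log2 fold change -1.36 ± 0.18, SE from edgeR). Of 15486 tested genes, 79 others had a more negative log2 fold change, and the fold change in the authors' deposited table was -1.18 on the log2 scale. With each library left out in turn the log2 fold change of Ctgf ran from -1.58 (without injured replicate 3) to -1.21 (without injured replicate 2), and it was called lower in each of these fits. An antisense gene, Gm15270, shares exon sequence with Ctgf, but it had at most 10 counts in any library against 1322 or more for Ctgf.

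Cyr61 (ENSMUSG00000028195, chromosome 3, 145646971 to 145649985, minus strand) encodes the other CCN member, which binds integrins and is made quickly after serum or stretch. It measured 264, 137 and 143 CPM in naive replicates 1 to 3 and 101, 50.3 and 40.3 CPM in injured replicates 1 to 3. The groups did not overlap, but naive replicate 1 and injured replicate 1 each stood far above the other lungs of their group. The coefficient of variation was 39.5% in naive and 51.1% in injured lungs, against 9.84% and 25.6% for Ctgf. The log2 fold change of Cyr61 was -1.50 ± 0.48 (naive mean 181 ± 71.6, injured mean 64.0 ± 32.7 CPM, SD, n = 3), and 57 of the other tested genes lay lower. It was nominally larger than the difference of Ctgf and was not called in this fit, by DESeq2 or by limma-voom. Without naive replicate 1 the log2 fold change was -1.14, and without injured replicate 1 it was -2.00. In the authors' deposited table it was -0.60 on the log2 scale, against -1.56 to -1.49 in 8 other fits of all 6 libraries made here. The settings behind the deposited value are not given, so the 2 scales may differ.

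Ankrd1 (ENSMUSG00000024803, chromosome 19, 36111965 to 36119844, minus strand) encodes a nuclear and sarcomeric ankyrin-repeat protein that is a YAP/TAZ target and is also abundant in heart muscle. It stood at 25.7, 43.9 and 24.9 CPM in naive replicates 1 to 3 and at 26.2, 14.2 and 46.5 CPM in injured replicates 1 to 3. The highest and the lowest of the 6 lungs were both injured, so the groups overlapped throughout. The log2 fold change was -0.11 ± 0.49, and its sign turned without naive replicate 2 (0.19) or without injured replicate 2 (0.22). Without injured replicate 3 it was -0.64.

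Among the nuclear effectors, Yap1 (ENSMUSG00000053110, chromosome 9, 7931999 to 8004596) measured 153, 161 and 175 CPM in naive and 142, 155 and 149 CPM in injured replicates 1 to 3. Wwtr1 (ENSMUSG00000027803, chromosome 3, 57455649 to 57575910) measured 242, 252 and 302 CPM in naive and 221, 244 and 252 CPM in injured replicates 1 to 3. An antisense gene, Gm20416, shares exon sequence with Yap1 and had at most 4 counts in any library. Both co-activators overlapped between the groups, with log2 fold changes of -0.13 ± 0.087 for Yap1 and -0.15 ± 0.11 for Wwtr1. Their profiles over the 6 lungs were the closest of any 2 members, with a root mean square difference of 0.058 in log2 CPM after each gene was centred. The ratio of Wwtr1 to Yap1, on the per-length FPKM scale of the authors, was 1.83 ± 0.095 in naive and 1.81 ± 0.084 in injured lungs (SD, n = 3), and the groups overlapped. Tead1 (ENSMUSG00000055320, chromosome 7, 112679318 to 112906807) encodes the most abundant TEAD factor here and measured 294, 298 and 338 CPM in naive and 272, 254 and 212 CPM in injured replicates 1 to 3. All 3 injured lungs lay under all 3 naive lungs, by a margin of 294 against 272 CPM at the closest, with a log2 fold change of -0.33 ± 0.11 that was not called.

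Of the members that act on the cascade, Lats2 (ENSMUSG00000021959, chromosome 14, 57642077 to 57758388), a kinase that phosphorylates YAP and TAZ, measured 213, 226 and 243 CPM in naive and 186, 177 and 164 CPM in injured replicates 1 to 3. The groups did not overlap and the spread was small, 6.46% of the mean in naive and 6.23% in injured lungs. The log2 fold change of -0.37 ± 0.090 was not called in this fit, but was called by DESeq2 and by edgeR with no filter on low counts. Exons of Lats2 overlap those of the protein-coding gene Gm49361 on the same strand. Gm49361 was not found by that symbol in the deposited table. How shared reads were counted is not known, so the counts of Lats2 are uncertain. Amotl2 (ENSMUSG00000032531, chromosome 9, 102716672 to 102733418), a junction scaffold of the angiomotin family that binds YAP, measured 282, 243 and 253 CPM in naive and 243, 229 and 179 CPM in injured replicates 1 to 3. Injured replicate 3 was the lowest lung, naive replicate 2 and injured replicate 1 were level, and the log2 fold change was -0.26 ± 0.12 (-0.13 without injured replicate 3).

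Ajuba and Nuak2 showed the smallest differences. Ajuba (ENSMUSG00000022178, chromosome 14, 54567469 to 54577661), a LIM-domain scaffold that restrains LATS kinases at junctions, measured 56.6, 68.8 and 70.0 CPM in naive and 73.2, 67.5 and 63.2 CPM in injured replicates 1 to 3. Nuak2 (ENSMUSG00000009772, chromosome 1, 132316126 to 132333488), an AMPK-related kinase reported to promote YAP/TAZ activity, measured 14.2, 14.6 and 15.8 CPM in naive and 13.8, 15.8 and 15.8 CPM in injured replicates 1 to 3. Both overlapped between the groups, with log2 fold changes of 0.061 ± 0.11 for Ajuba and 0.028 ± 0.12 for Nuak2, and both signs turned without naive replicate 1, that of Nuak2 also without injured replicate 2 or 3.

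**Figure D2:**
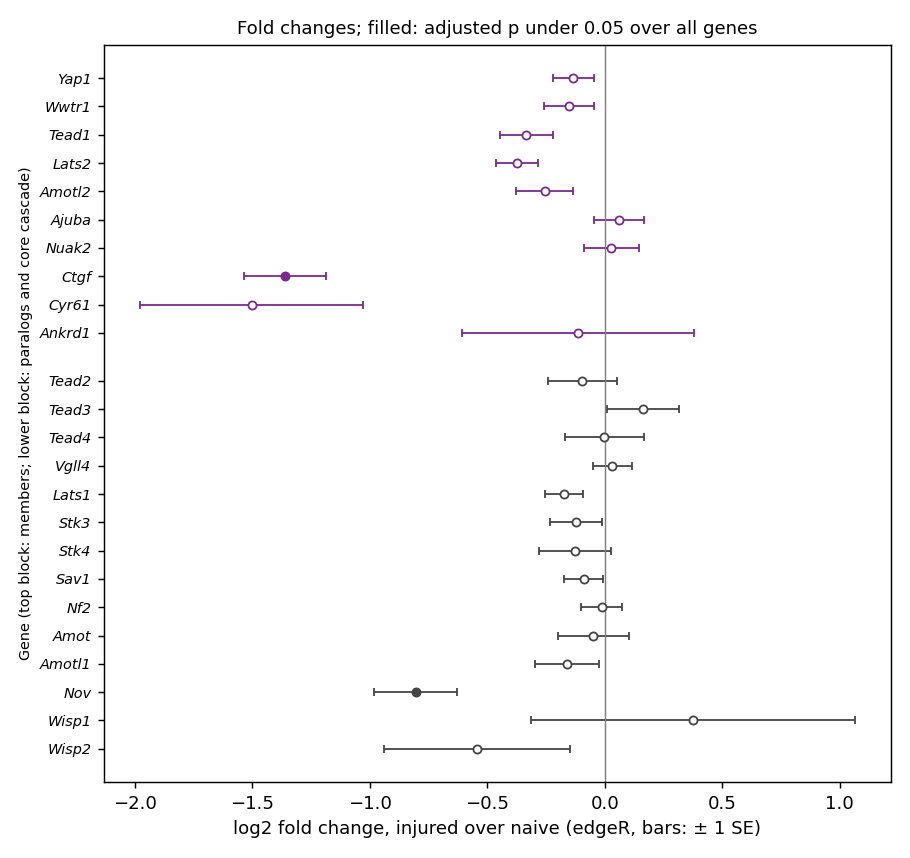
edgeR's log2 fold changes (injured over naive) with ± 1 SE, for the 10 members (upper block) and their paralogs and the core cascade (lower block); filled points were called at an adjusted p under 0.05 over all genes. Ctgf (-1.36) and Cyr61 (-1.50) stand apart from the other members, and the SE of Cyr61 is 0.48 against 0.18 for Ctgf.

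Compared per length, on the deposited FPKM scale, the CCN genes led the members in naive lungs and not in injured lungs. In naive lungs the order was Cyr61 (89.0 ± 36.2 FPKM), Ctgf (77.6 ± 8.43), Amotl2 (58.2 ± 5.07), Wwtr1 (56.1 ± 5.87), Lats2 (43.5 ± 2.16), Tead1 (30.9 ± 1.92), Yap1 (30.7 ± 1.66), Ajuba (18.5 ± 1.91), Ankrd1 (17.8 ± 6.16) and Nuak2 (4.75 ± 0.188, all SD, n = 3). The neighbours Cyr61 and Ctgf, Amotl2 and Wwtr1, Tead1 and Yap1, and Ajuba and Ankrd1 did not differ beyond their spread. In injured lungs Wwtr1 (51.1 ± 3.37 FPKM) and Amotl2 (49.2 ± 7.74) came highest, followed by Lats2 (34.0 ± 2.15), Cyr61 (31.7 ± 16.2), Ctgf (30.5 ± 7.74) and Yap1 (28.2 ± 1.18), of which neighbours did not differ beyond their spread except Amotl2 and Lats2. Tead1 (24.8 ± 3.17), Ajuba (19.5 ± 1.45), Ankrd1 (16.5 ± 9.26) and Nuak2 (4.90 ± 0.364) followed. Here too Tead1 and Yap1, and Ajuba and Ankrd1, did not differ beyond their spread. Ankrd1 ran from 8.08 to 26.4 FPKM in injured lungs, so its place relative to Tead1 is uncertain as well. Per length, Ctgf stood at 2.66, 2.83 and 2.14 times Yap1 in naive replicates 1 to 3 and at 1.07, 0.804 and 1.38 times Yap1 in injured replicates 1 to 3. The ratio of Ctgf to Cyr61 ran from 0.592 to 1.28 in naive and from 0.576 to 1.95 in injured lungs, so the 2 CCN genes did not keep a fixed proportion within either group.

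Among the paralogs of the members, 1 CCN gene was called, and no paralog of TEAD1, LATS2 or AMOTL2 was. Tead1 made up 50.0% to 56.6% of the summed FPKM of the 4 TEAD genes in naive lungs and 42.2% to 50.4% in injured lungs, which overlapped, with injured replicate 3 lowest. Tead2 (log2 fold change -0.095 ± 0.15), Tead3 (0.16 ± 0.15) and Tead4 (-0.00096 ± 0.17), which bind the same core, did not pass the test. Of 5 tested genes among 7 listed TEAD and VGLL genes, none was called by edgeR, DESeq2 or limma-voom or had an unadjusted p under 0.05, including Vgll4, a competitor of YAP for TEAD (0.033 ± 0.083). The kinase paralog Lats1 stood at -0.17 ± 0.080, and the ratio of Lats2 to Lats1 per length was 3.78 ± 0.305 in naive and 3.28 ± 0.161 in injured lungs (SD, n = 3). The angiomotins Amot (-0.048 ± 0.15) and Amotl1 (-0.16 ± 0.14) did not pass the test either.

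The other CCN genes were Nov (Ccn3), Wisp1 (Ccn4) and Wisp2 (Ccn5), of which 1 of 3 was called lower and none higher. Nov, a CCN protein often reported to oppose Ctgf, fell from 16.1 ± 2.95 to 9.18 ± 1.34 CPM (SD, n = 3; log2 fold change -0.80 ± 0.18, edgeR adjusted p = 0.0403). It was lower in 3 of 3 injured lungs than in any naive lung. The call of Nov was lost without naive replicate 1, naive replicate 2 or injured replicate 1, 2 or 3, with an adjusted p up to 0.172, and in limma-voom (0.0858). Wisp1 (0.38 ± 0.69) and Wisp2 (-0.54 ± 0.39) did not pass the test, and the sign of Wisp1 turned without injured replicate 3 (-0.59).

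No gene of the Hippo cascade was called in this edgeR fit, which held all 6 libraries, the filter on low counts and no replicate block. The lists that follow leave out the member Lats2, which DESeq2 called lower. Of 16 tested kinases and adaptors, none was called by edgeR, DESeq2 or limma-voom and none had an unadjusted p under 0.05. Their median log2 fold change was -0.12, with 13 of 16 negative and a range from -0.20 to 0.090. Stk3 (-0.12 ± 0.11) and Stk4 (-0.13 ± 0.15), the MST kinases, Sav1, their scaffold (-0.088 ± 0.083), Mob1a, the LATS co-activator (0.024 ± 0.094), and Map4k4, a parallel kinase (-0.13 ± 0.15), lay near this median or zero. Of 26 upstream regulators, none was called in this edgeR fit or by limma-voom, 2 had an unadjusted p under 0.05, and DESeq2 called 1 lower. The gene called by DESeq2 was Fat4, an atypical cadherin, which fell outside the naming rule and was singled out after its values were seen (edgeR log2 fold change -0.42 ± 0.099, adjusted p = 0.0548). Fat4 was also called lower by edgeR with no filter on low counts (adjusted p = 0.0319) and without naive replicate 3 (0.0457). Nf2, or merlin (-0.012 ± 0.087), Tjp1, the tight junction protein ZO-1 (-0.044 ± 0.096), and Wwc1, or KIBRA (-0.022 ± 0.12), were near zero.

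Other target genes gave 1 call by edgeR. Over all tested genes, 16.7% had an unadjusted p under 0.05 and 50.2% had a negative log2 fold change. The remaining 16 genes of a published YAP/TAZ target signature gave no call by edgeR or limma-voom, 5 with an unadjusted p under 0.05, and 2 called lower by DESeq2. Their median log2 fold change was -0.18 against -0.00096 over all genes, and 15 of 16 were negative. Under the naming rule the most abundant were Crim1, a transmembrane protein that binds growth factors (-0.15 ± 0.088), and Axl, a receptor tyrosine kinase (0.039 ± 0.10). The genes called by DESeq2, singled out after their values were seen, were Rbms3, an RNA-binding protein (edgeR log2 fold change -0.42 ± 0.10, adjusted p = 0.0677), and Igfbp3, a binding protein of insulin-like growth factors (-0.63 ± 0.21, adjusted p = 0.179). Among 11 tested of 12 other genes reported as targets, 1 was called lower and none higher by edgeR, with 2 higher and 5 lower at an unadjusted p under 0.05, 0 higher by DESeq2 and limma-voom, and a median of -0.28. The gene called was Areg, an epidermal growth factor receptor ligand, which fell from 5.79 ± 2.34 to 1.54 ± 0.0567 CPM (SD, n = 3; log2 fold change -1.92 ± 0.33, edgeR adjusted p = 0.0146). It was lower in 3 of 3 injured lungs than in any naive lung, and its call was lost without injured replicate 1 (adjusted p = 0.0669) or injured replicate 2 (0.0510).

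**Figure D3:**
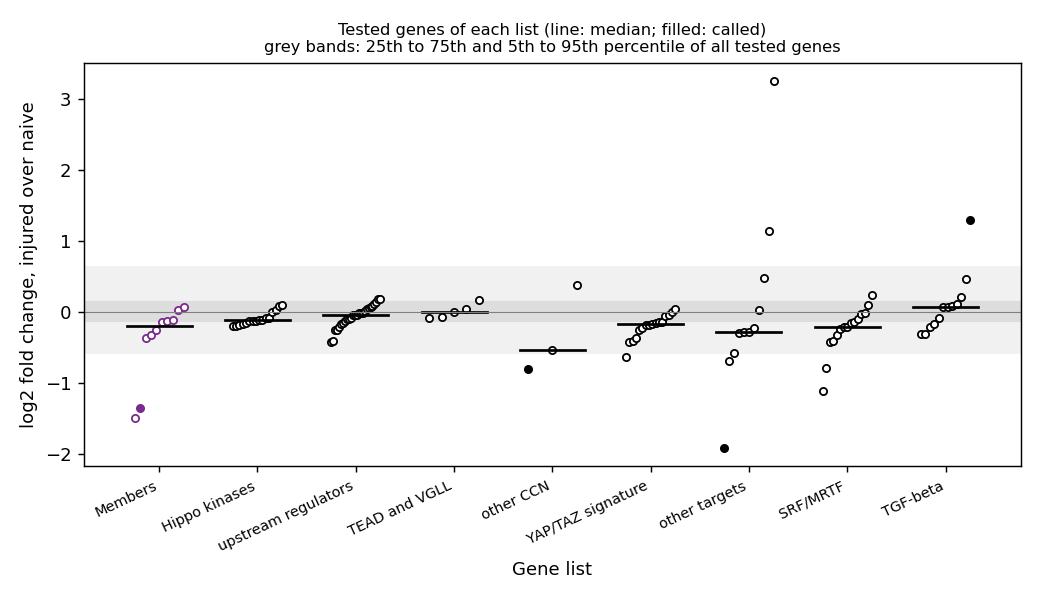
log2 fold changes of the tested genes in the members and in 8 lists of related genes, with medians as lines and called genes filled; grey bands give the 25th to 75th and the 5th to 95th percentile of all tested genes. Medians lie at or under zero in all lists except TGF-beta (0.071), and 5 of 11 other targets lie outside the outer band, which runs from -0.58 to 0.63, against at most 2 genes of any other list shown.

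Ctgf and Cyr61 also answer to SRF with its MRTF co-activators and to TGF-beta, so genes of these routes were examined. Of 15 SRF/MRTF genes none was called by edgeR or limma-voom, 3 had an unadjusted p under 0.05, and 2 were called lower by DESeq2, Cnn1 and Vcl, named after their values were seen. The median was -0.22. The most abundant members of that list, Actb (0.091 ± 0.13) and Myh9 (-0.24 ± 0.11), which encode cytoplasmic actin and non-muscle myosin, did not pass the test. Of 12 TGF-beta ligands, receptors and response genes, 1 was called higher and none lower by edgeR, DESeq2 called 2 higher and none lower, limma-voom called 1 higher and none lower, no gene was lower at an unadjusted p under 0.05, and the median was 0.071. Tgfbi, a matrix protein induced by TGF-beta and made also by macrophages, rose from 75.2 ± 5.36 to 184 ± 29.7 CPM (SD, n = 3; log2 fold change 1.29 ± 0.13, edgeR adjusted p = 0.000892). It was higher in 3 of 3 injured lungs than in any naive lung, whereas Ctgf was lower. The part of SRF/MRTF or TGF-beta in the values of Ctgf and Cyr61 was not tested.

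Genes whose levels followed the target genes most closely were sought among the 9839 tested genes that averaged at least 10 CPM, predicted genes left out, as the lowest root mean square difference in centred log2 CPM over the 6 lungs. For Cyr61 these were Dusp1 (0.353), Nr4a1 (0.362) and Fendrr (0.432). Dusp1, a phosphatase, and Nr4a1, a nuclear receptor, are immediate early genes, which rise within minutes of a stimulus. Dusp1 stood at 608, 186 and 237 CPM in naive and 192, 124 and 112 CPM in injured replicates 1 to 3, so naive replicate 1 was far above the rest for both genes. A list of 12 immediate early genes was then added, after these values had been seen. The list holds Dusp1 and Nr4a1, found above by their closeness to Cyr61, so a likeness of its sum to Cyr61 is partly built in. Its summed level was 2042, 1098 and 1159 CPM in naive and 1136, 904 and 934 CPM in injured replicates 1 to 3. The lungs that stood highest in each group for Cyr61 were also highest in this sum, and the groups overlapped in the sum but not in Cyr61. None of the 12 was called by edgeR, DESeq2 or limma-voom, 1 had an unadjusted p under 0.05, and their median log2 fold change was -0.48. Their part in the difference of Cyr61 was not tested.

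For Ankrd1 the closest genes were Myom1 (0.213), Hspb6 (0.245) and Eno3 (0.246), all known from striated or smooth muscle. The closest gene to Ctgf was Actc1 (0.264), cardiac actin and itself on the list of heart muscle markers, followed by Efcc1 (0.289) and Nnat (0.303). Heart muscle markers, which in mouse lung samples can come from the muscle sleeve of the pulmonary veins or from attached atrium, were all 12 in the table, and none was at 0 in every library, while Nppa had 0 counts in naive replicate 1 and injured replicate 1. Their summed level was 540.0, 960 and 616 CPM in naive and 392, 184 and 745 CPM in injured replicates 1 to 3. Ankrd1 was highest in the 2 lungs with the highest sum, naive replicate 2 and injured replicate 3, and lowest in the lung with the lowest, injured replicate 2. Within each group Ctgf was likewise highest in the lung with the highest heart marker sum. The sum overlapped between the groups while Ctgf did not: injured replicate 3 had a higher sum than naive replicates 1 and 3 and 96.6 CPM of Ctgf against their 192 and 177 CPM. None of 11 tested heart markers was called by edgeR, DESeq2 or limma-voom, and 1 had an unadjusted p under 0.05, but 10 of 11 were negative, with a median log2 fold change of -0.63. Without injured replicate 3, 2 heart markers were called lower, Actc1 (-1.52) among them, and 1 higher. The part of heart muscle in the Ctgf and Ankrd1 values was not tested.

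**Figure D4:**
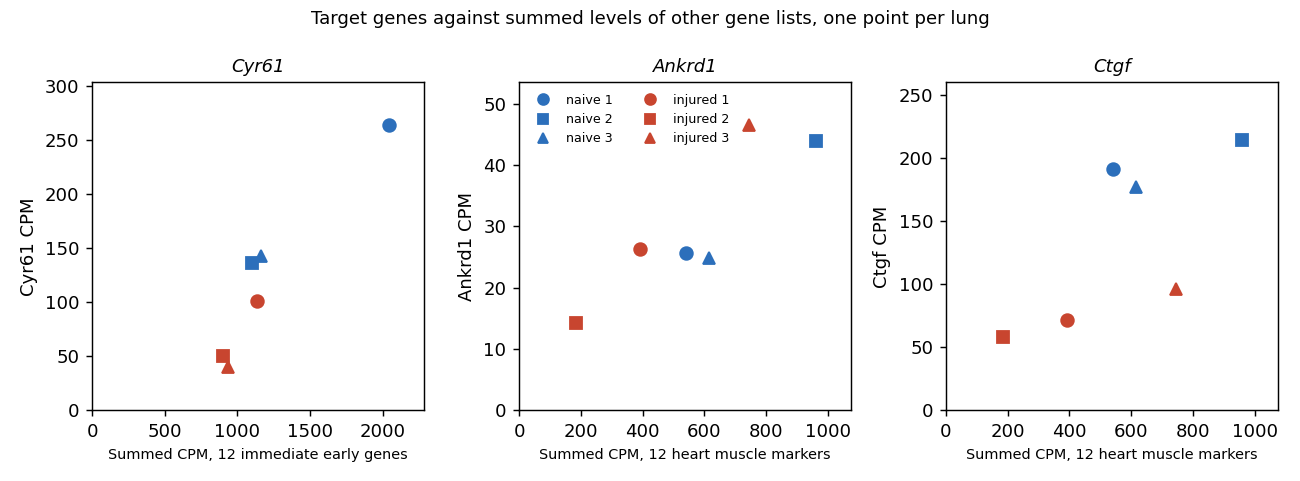
CPM of Cyr61 against the summed CPM of 12 immediate early genes, and of Ankrd1 and Ctgf against the summed CPM of 12 heart muscle markers, with 1 point per lung. The immediate early genes include Dusp1 and Nr4a1, which were found by their closeness to Cyr61. Naive replicate 1 is highest on both axes for Cyr61 (264 and 2042 CPM), Ankrd1 mixes the groups along the heart marker sum, and all 3 injured lungs lie under all naive lungs for Ctgf.

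Summed markers of cells in which the pathway is known to be active overlapped between the groups, but a sum can hide single genes. The groups did not overlap for 2 of 9 alveolar type 1, 2 of 10 endothelial and 1 of 9 fibroblast markers. The same held for 3 of 10 smooth muscle and pericyte and 2 of 7 mesothelial markers, against 22.9% of all tested genes. Those of the endothelial, fibroblast, and smooth muscle and pericyte lists were all lower in injured lungs, where 10.6% of all tested genes were separated in that direction. Of the smooth muscle and pericyte markers 9 of 10 were negative, against 50.2% of all tested genes. Lower at an unadjusted p under 0.05 were 4 of them, where 16.7% of all genes passed in either direction. The 2 mesothelial markers, named after their values were seen, were Upk3b, lower (log2 fold change -1.34 ± 0.71), and Krt19, higher (0.52 ± 0.13). Neither was called in this fit, but Krt19 was called higher by DESeq2, by edgeR with no filter on low counts, and without injured replicate 3. Summed alveolar type 1 cell markers ran from 7318 to 8095 CPM in naive and from 6685 to 7882 CPM in injured lungs, and endothelial markers from 5484 to 5841 and from 4539 to 5671 CPM. Fibroblast markers ran from 3924 to 5566 and from 4289 to 5768 CPM. Smooth muscle and pericyte markers ran from 894 to 1120 and from 848 to 985 CPM, with 1 of 10 called lower (Actg2, -0.82; 0 called without naive replicate 2 or injured replicate 1), and mesothelial markers from 513 to 578 and from 299 to 621 CPM. In contrast to these sums, neutrophil markers rose from between 59.3 and 94.6 to between 626 and 1382 CPM, with 9 of 10 called higher (6 without naive replicate 1 or 3). Macrophage markers ran from 7590 to 8830 and from 8382 to 8949 CPM in sum, with 4 of 8 tested called higher, and 3 by limma-voom. With naive replicate 2 omitted 2 of these markers were called, and 1 when naive replicate 1, injured replicate 1 or injured replicate 2 was omitted. In these lists of markers none at all was at 0 counts in every library. The part of cell composition in the member values was not tested.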

How the data were processed

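The authors deposited 1 table of 23194 genes for 6 left lungs, with raw read counts per gene, a signal (counts divided by 1 factor per library, as found in the values), FPKM values per kilobase of the listed gene length, and, per the file headers, the log2 fold changes of the authors with p-values, which were not used here beyond the fold changes named as deposited. Per the submitters' processing notes, the build was mm10 and the tools included HTSeq, STAR, STAR-Fusion, edgeR and DESeq2. The sources used here give no version, setting or use of strand. The deposited FPKM equalled counts over length and column total within a relative tolerance of 1e-06. No per-library column was left unmapped.

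Counts were filtered by filterByExpr (15486 genes), scaled by TMM and compared by the robust quasi-likelihood F test of edgeR 4.0.16 (limma 3.58.1, R 4.3.3), two-sided, with Benjamini-Hochberg adjustment over all tested genes. A gene was called at an adjusted p under 0.05. Each SE is the log2 fold change divided by the root of F. DESeq2 1.42.0, limma-voom, other scalings and filters, omission of the 20 most abundant and haemoglobin genes, a replicate block and each library left out were the alternatives. Members and lists were chosen with earlier results of these data known. Text names all members, fixed paralogs, up to 4 called genes per list at 1 CPM or more (otherwise the 2 most abundant), and the 3 genes closest to each target gene. Calls made only by DESeq2 or the block were named after their values were seen, and Nppa and overlapping genes for their counts. Marker lists served as sums, and their genes are mostly not named. Left lungs were taken as separate mice, which no label states, so p-values measure the spread between these samples. On simulated counts for this comparison (15486 genes), 73 of 100 changes of 1 on the log2 scale and 98 of 100 changes of 2 were recovered by edgeR, and 13 of its 184 calls were false.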

Additional observations from a re-analysis of the deposited data

How the results depend on the processing

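Ctgf was called lower under all 8 alternatives that kept the 6 libraries and in all 6 fits with 1 library left out, and members called higher stayed at 0. Members called lower numbered 2 by DESeq2 and with no filter on low counts (Ctgf and Lats2). Calls over all genes were 334 higher and 148 lower, against 578 and 398 by DESeq2, 269 lower with no filter, and 145 to 333 higher and 48 to 146 lower with a library left out. DESeq2 gave 1 upstream regulator, 2 signature genes, 2 other targets and 2 SRF/MRTF genes lower and 2 TGF-beta genes higher; no filter gave 1, 1 and 1 lower for upstream regulators, signature and SRF/MRTF genes and 2 TGF-beta genes higher; limma-voom gave 0 other CCN genes lower. With a library left out, genes called lower ran from 0 to 1 for upstream regulators and signature genes (1 without naive replicate 3), other CCN genes, other targets and TGF-beta genes (1 without naive replicate 1), and from 0 to 3 for SRF/MRTF genes (3 without injured replicate 3), and TGF-beta genes called higher from 1 to 2 (2 without naive replicate 3).

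No label pairs the lungs by replicate number. The deviations of same-numbered libraries correlated at 0.077, -0.085 and 0.15 for numbers 1 to 3, and naive replicate 1 correlated best with injured replicate 2 (0.28). Deviations from a mean of 3 lungs constrain one another, so these correlations cannot exclude a pairing. With the replicate block, members called lower numbered 2 (Ctgf and Cyr61, the latter at -1.55 ± 0.11), upstream regulators 1 (Fat4) and signature genes 1. TGF-beta genes called higher numbered 2, other targets 1 (Birc5, named after its values were seen) and mesothelial markers 1 (Krt19).

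Signs turned for genes near zero. With a library left out the log2 fold changes ran from -0.038 to 0.11 for Ajuba, -0.011 to 0.089 for Nuak2, -0.64 to 0.22 for Ankrd1, -0.19 to 0.087 for Tead2, -0.12 to 0.24 for Tead4, -0.15 to 0.082 for Amot, -0.053 to 0.032 for Nf2, -0.0063 to 0.076 for Vgll4, -0.59 to 0.75 for Wisp1, -0.28 to 0.019 for Map4k4, -0.019 to 0.095 for Mob1a, -0.093 to 0.096 for Wwc1, -0.022 to 0.12 for Axl and -0.019 to 0.21 for Actb. Among the markers they ran from -0.14 to 0.018 for Ager, -0.10 to 0.16 for Inmt and -0.23 to 0.75 for Col3a1. Tead4 was 0.018 with library size alone, 0.013 in limma-voom and 0.028 with the replicate block, and Nf2 0.0026 with library size alone. The cause of these differences was not tested. With 3 lungs a group, differences smaller than 1 on the log2 scale were not simulated, so how often they would be called is not known.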
